A study of Mus musculus with 7 samples.

Results

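Layer 6 Foxp2 corticothalamic neurons were taken from 7 single-nucleus RNA libraries of 5xFAD mouse brain. A barcode had to pass 4 conditions. It had at least 300 genes, under 5% of its UMIs (unique molecular identifiers, each standing for 1 captured RNA molecule) from mitochondrial genes, at least 2 UMIs of Slc17a7, the vesicular glutamate transporter of cortical and hippocampal excitatory neurons, and at least 3 detected of the 6 genes Foxp2, Hs3st4, Syt6, Arhgap25, Col5a1 and Rai14. The summed UMIs of these 6 genes also had to exceed those of a list led by Cux2 and of a list led by Rorb, each with 6 genes, which mark upper and middle cortical layers. These measured UMIs of 19 genes chose the members, so the levels of those genes are a description and carry no test. The rule selected 1877 nuclei of the 58169 that passed the first filters (3.23%) and of the 11751 with Slc17a7 (15.97%).

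Corticothalamic neurons are excitatory neurons of the deepest cortical layer that send their axons to the thalamus, where they contact relay neurons and the inhibitory neurons of the reticular nucleus. Their feedback sets the gain and timing of the signals that the thalamus passes to the cortex. The transcription factors Tbr1, Sox5, Fezf2, Tle4 and Foxp2 mark them or direct their development, and layer 6b, a thin band below them, holds a related set of neurons marked by Ccn2 and Nxph4.

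The mice carried the 5xFAD transgenes on 1 chromosome copy (5xFAD +/-). The transgenes of this line, mutant human APP among them, are driven in neurons by the Thy1 promoter, so every group compared here carries amyloid. The 4 ANGPT2 AAV libraries came from mice given an AAV for ANGPT2, and the 3 Control AAV libraries from mice given a control AAV. All were injected behind the eye at 4 months and were 6 months old, per the labels. Angiopoietin-2, the protein that ANGPT2 encodes, is secreted and binds TIE2, a receptor of blood vessel cells whose gene is Tek. Both groups had 1 male and 1 female library in batch 1, and batch 2 held an ANGPT2 male, an ANGPT2 female and a control male. The labels give 1 sex for each library, and nothing in them says that animals were pooled. They name the subcortex, thalamus and hippocampus as the tissue and do not name the cortex. Below, lists of values for single libraries run in the order male and female of batch 1, then of batch 2, within each group.

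The libraries held 25466033 to 100529717 UMIs each. The members numbered 347, 387, 94 and 115 in the ANGPT2 libraries and 407, 426 and 101 in the control libraries. They held 5161642, 6143872, 871135 and 802382 UMIs in the ANGPT2 libraries and 8156753, 6576295 and 522618 in the control libraries. Batch 2 was therefore shallower in both groups, in number of nuclei and in UMIs. The median UMIs per member were 13439, 14006, 8751 and 5723 in ANGPT2 libraries, against 16268, 13227 and 4830 in control libraries. Of 1875 barcode sequences among the members, 2 occurred in more than 1 library. The female control library of batch 1 stood apart from the other 6 in many genes, described below, and several gene results are given with and without it.

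Foxp2 itself, a forkhead transcription factor, was detected in 87.7% to 97.4% of the members of a library, at 511 to 914 CPM, the UMIs of a gene per 1000000 UMIs of the nuclei summed in a library. Nuclei that met the same rule for the Cux2 list held 9.53 to 32.9 CPM of Foxp2, and those for the Rorb list 16.1 to 144 CPM. Oligodendrocyte nuclei, which should lack the gene, held 91.5 to 288 CPM, and 5.95% to 19.6% of them had a Foxp2 UMI at median depths of 900.5 to 2991 UMIs. A Foxp2 UMI was thus found in some nuclei of another type, while the share among the members was several times larger in every library. Hs3st4, an enzyme that sulfates heparan sulfate chains, ranged from 2136 to 3240 CPM in the members. Syt6, a synaptotagmin, ranged from 81.0 to 199 CPM and Rai14, an actin-associated protein, from 104 to 222 CPM. Arhgap25, a regulator of Rac, ranged from 57.6 to 142 CPM and the collagen gene Col5a1 from 42.5 to 99.5 CPM. By number of markers, 576 members had 3, 462 had 4, 517 had 5 and 322 had all 6.

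The nuclei on both sides of the limits of the rule were set side by side. The members with exactly 3 markers had a median of 37.9 UMIs per 10000 from 16 other corticothalamic markers, and the 1069 nuclei with exactly 2 markers that met every other condition had 29.5. The 547 members with exactly 2 Slc17a7 UMIs had a median of 61.3, and the 815 nuclei that met the rule but for a single Slc17a7 UMI had 52.3. All members together had 61.1. In the 41 members whose marker sum led by only 1 or 2 UMIs the median was 17.8, and in the 257 nuclei with at least 3 markers but a sum that did not lead it was 14.2. Nuclei on both sides of the limit on the sum thus held far fewer of these markers than the members as a whole.

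The label held against markers that the rule did not use. Of 16 other corticothalamic markers, 14 were higher in the members than in both the Cux2 and the Rorb nuclei in all 7 libraries. These 14 included the corepressor Tle4 (272 to 480 CPM in members), the transcription factors Tbr1 (47.4 to 72.2 CPM), Sox5 (578 to 796 CPM) and Fezf2 (10.3 to 31.5 CPM), and Ntsr1, the neurotensin receptor used to label these cells in transgenic mice (6.62 to 13.4 CPM). Rprm led in 6 libraries and Lmo3 in 4. In the opposite direction, the upper-layer genes Calb1, Rasgrf2, Lamp5, Unc5d and Cux1 were lower in the members than in both other classes in all 7 libraries. Mdga1 went against this pattern, since it was higher in the members than in both other classes in 3 libraries and lower than both in none. Otof was lower than both in 2. These are comparisons between classes cut by the same rule, and they carry no test.

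**Figure D1:**
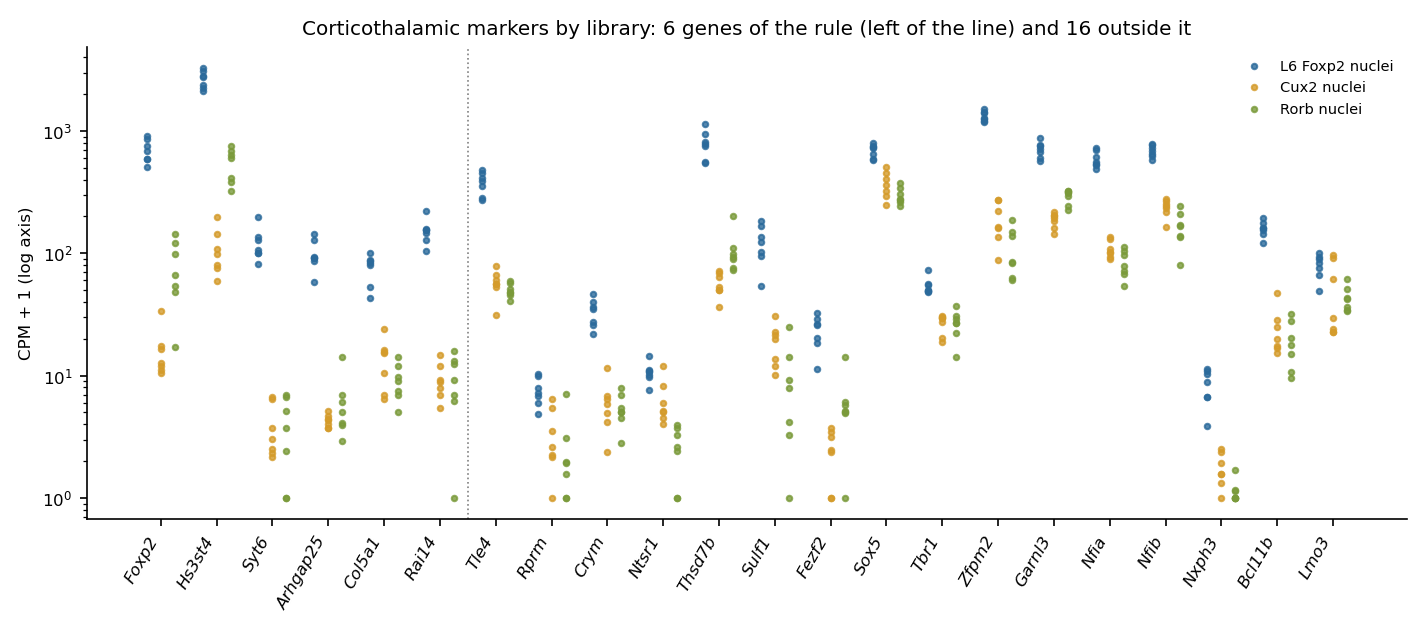
Levels of 6 corticothalamic marker genes of the rule and 16 outside it, in CPM plus 1 on a log axis, 1 point per library, for the members, the Cux2 nuclei and the Rorb nuclei. Foxp2 lies between 511 and 914 CPM in the members and at or below 144 CPM in every library of the other classes.

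The genes outside the rule with the largest mean ratio of members over Cux2 and Rorb nuclei were led by Svil, the actin-binding protein supervillin, at 53.0 ± 13.1 CPM in the members against 3.93 ± 1.58 CPM in the Cux2 and Rorb nuclei (SD, n = 7 libraries). Within the members Svil was at 339 CPM in a cluster of 158 nuclei led by layer 6b genes and at 20.2 CPM in all others. Thsd7b averaged 791 ± 211 CPM against 70.5 ± 10.7 CPM, and Grik3, a kainate receptor subunit, 452 ± 76.3 CPM against 47.5 ± 12.4 CPM (SD, n = 7). Their ranges over libraries did not overlap between the classes. Next came Gng12, a G protein gamma subunit, Sema5b, a semaphorin, Glra2, a glycine receptor subunit, and Zfpm2, a cofactor of GATA factors at 1319 ± 125 CPM in members against 160.0 ± 54.4 CPM. Sulf1, Bcl11b, Sdk2, Tle4, Cdh18, Nrp1, Rell1 and Dlc1 completed the 15 genes, with mean log2 ratios from 2.67 to 3.48 over the whole set. On the opposite side the nuclear receptor Pparg averaged 16.5 ± 3.64 CPM in members against 194 ± 28.1 CPM (SD, n = 7). Lingo2, a leucine-rich repeat membrane protein, averaged 736 ± 161 CPM against 4043 ± 272 CPM. Slc30a3, the transporter that loads zinc into synaptic vesicles, averaged 8.96 ± 2.93 CPM against 52.8 ± 10.6 CPM. Car4, Rasgrf2, Col26a1, Unc5d, Rskr, Myo16 and A830036E02Rik were the other 7 of these 10 genes. Of 3134 genes with at least 50 CPM in the members 804 were higher in members in every library, and of 3082 genes with at least 50 CPM in the Cux2 and Rorb nuclei 618 were lower in members in every library, so each count comes from genes kept through the class in which they had to be expressed. All of this describes classes that were cut from the same nuclei.

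The members were not uniform. Clustered by themselves they fell into 13 clusters, of which 4 had under 10% doublet calls and no marker of another cell type among their 10 leading genes. These 4 clusters, numbered 1, 3, 5 and 12 (336, 195, 348 and 252 nuclei) and called the core here, held 1131 nuclei, 60.3% of the members and 47.5% of their UMIs. The first was led by Cpa6, Trabd2b and Col5a1, the second by Rxfp1, the relaxin receptor, with Pdzrn4 and Ltbp1, and the third by Mettl24, Ddo and Abi3bp, with Hcrtr2, the orexin receptor, among its 10 genes. The last was led by Gm35853, Nptx2 and Megf11. Of its 252 nuclei, 241 (95.6%) came from the female control library of batch 1, so it may stand for that library rather than for a kind of cell. The core took 61.4%, 62.8%, 60.6% and 66.1% of the members in ANGPT2 libraries and 53.8%, 60.6% and 64.4% in control libraries.

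The other 746 members lay in clusters whose leading genes belong to other cells or that held many called doublets. A cluster of 158 nuclei was led by the layer 6b genes Ccn2 and Moxd1 beside Svil. Clusters of 67 and 30 nuclei were led by Tshz2 and Vwc2l, markers of near-projecting neurons of layers 5 and 6. A cluster of 111 nuclei, cluster 6, had 89.2% doublet calls and was led by genes such as St18, Inpp5d and Ly86, which oligodendrocytes or microglia express. A cluster of 115 nuclei, cluster 7, had 52.2% doublet calls and was led by Vav3, Synpo2, Syt9, Tcf7l2, Plekhg1 and Lef1, among them 3 markers of thalamic neurons. Its leading genes also held Adarb2, on the list of inhibitory markers, at 2132 CPM against 153 CPM in the other members. Its nuclei averaged 58.8 UMIs from the list of inhibitory markers and 25.2 from that of thalamic markers. A cluster of 67 nuclei, cluster 10, was led by Ccbe1, Cntnap5c, Tafa1, Epha6 and Zbtb20, and 41.8% of it were called doublets. A cluster of 42 nuclei, cluster 9, was led by Rarb, Drd2 and Rgs9, genes of striatal neurons. Clusters of 135 and 21 nuclei made up the rest. The conditions on Slc17a7 and on the 3 marker sums thus also admitted nuclei in which genes of a second cell type were high.

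Several of these clusters were not spread evenly over the libraries. Cluster 7 held 12, 10, 4 and 2 nuclei in the ANGPT2 libraries and 50, 34 and 3 in the control libraries. Cluster 10 held 5, 6, 2 and 1 in ANGPT2 libraries and 39, 11 and 3 in control libraries. Cluster 6 held 11, 20, 4 and 2 in ANGPT2 libraries and 35, 36 and 3 in control libraries. In batch 1 these 3 clusters were larger in the control libraries, and in batch 2 they held at most 4 nuclei in any library. Cluster 9 went the other way, with 6, 18, 9 and 2 nuclei in ANGPT2 libraries and 0, 4 and 3 in control libraries. Cluster 7 held 10.4% of all UMIs of the members and cluster 10 held 7.04%, and several gene results below draw most of their UMIs from them. Over all members, doublet calls took 10.4%, 14.7%, 14.9% and 13.0% of ANGPT2 members and 19.4%, 13.1% and 19.8% of control members.

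**Figure D2:**
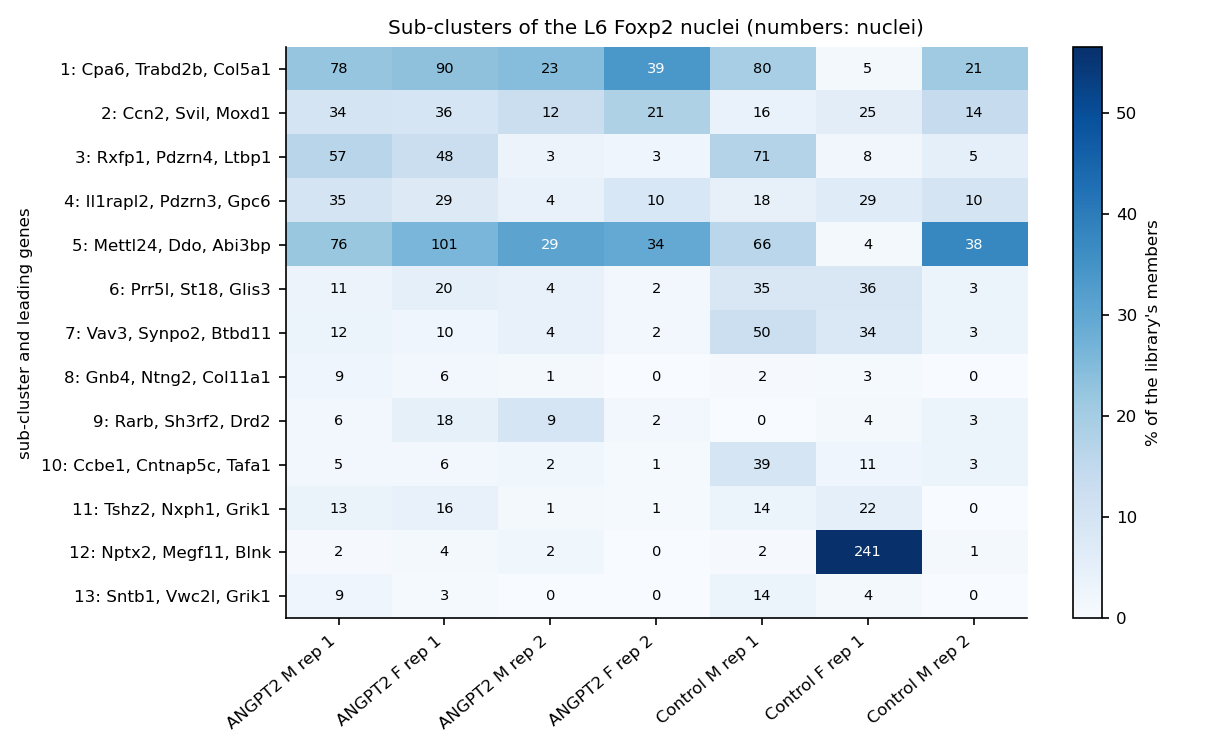
Share of each library's Layer 6 Foxp2 nuclei, in percent, that lay in each cluster, with the 4 ANGPT2 AAV libraries left of the 3 Control AAV libraries. Cluster 12, led by Nptx2, takes 241 of its 252 nuclei from the female control of batch 1, and cluster 7 is larger in the batch 1 control libraries than in the ANGPT2 libraries.

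The question for abundance was whether ANGPT2 AAV changed the share of these neurons, and no share differed by the test. The members made up 16.9%, 16.4%, 19.1% and 19.9% of the Slc17a7 nuclei in ANGPT2 libraries and 13.5%, 15.8% and 18.1% in control libraries. The ANGPT2 values were higher than the control values of the same batch, but the groups overlapped, and batch 2 lay above batch 1 in both. The mean was 18.1% ± 1.69 (SD, n = 4) in ANGPT2 libraries and 15.8% ± 2.30 (SD, n = 3) in control libraries, a difference of 2.26 percentage points (two-sided exact permutation test over 35 splits, p = 0.2, 0.6 after Benjamini-Hochberg adjustment over 3 shares). Within batches the difference was 1.99 points in batch 1 and 1.37 in batch 2. Permuting within batches gave an exact p of 0.0556, the smallest that these 18 splits can give, while the smallest over all 35 is 0.0286. As a share of all nuclei that passed, the members took 2.87% ± 1.67 (SD, n = 4) and 3.70% ± 2.36 (SD, n = 3), with an exact permutation p of 0.629 (adjusted 0.943). Of the nuclei that met the rule for 1 of the 3 cortical lists they took 38.8% ± 8.33 (SD, n = 4) and 38.9% ± 10.1 (SD, n = 3), with an exact permutation p of 1 (adjusted 1). The sign of the difference therefore depended on the denominator. With at least 4 of the 6 markers required, the share of Slc17a7 nuclei was 12.4% ± 0.332 (SD, n = 4) in ANGPT2 and 9.56% ± 1.84 (SD, n = 3) in control libraries, and the groups did not overlap (difference 2.86 points, exact permutation p = 0.0286, unadjusted). Detecting a marker depends on depth. With the rule of at least 3 markers applied to nuclei thinned to 2000 UMIs, the difference was 2.00 points (exact permutation p = 0.657). Nuclei under 2000 UMIs, 1150 to 4362 of a library, were left out, and 9 to 31 members remained in each library. The share with 4 markers was not tested after thinning.

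**Figure D3:**
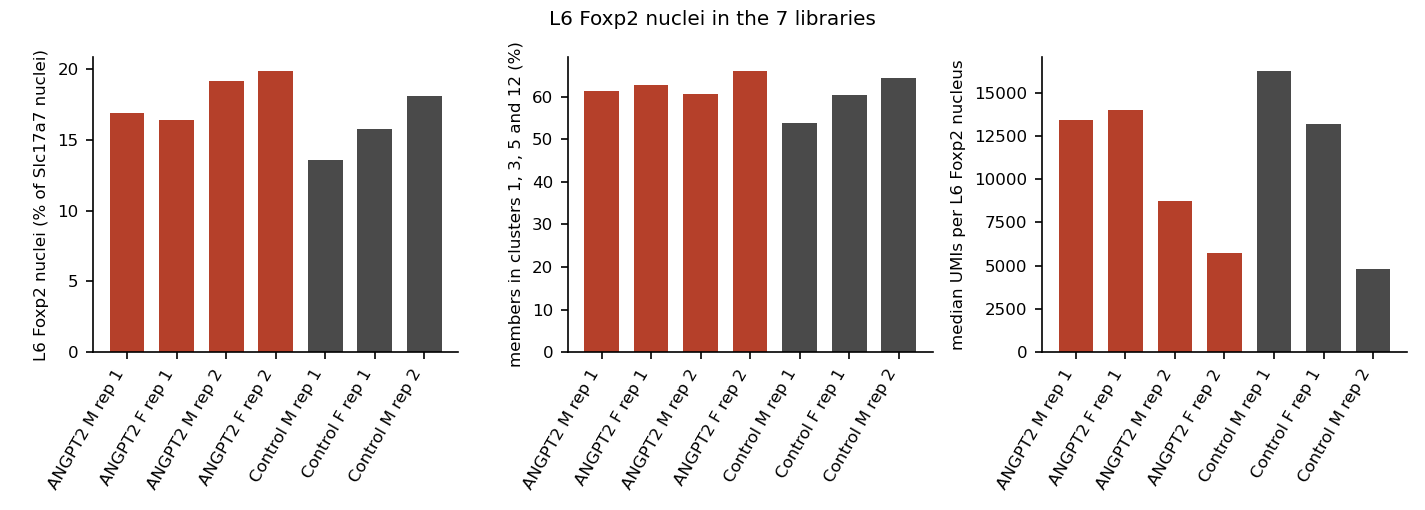
Bars per library, ANGPT2 AAV left of Control AAV, of the Layer 6 Foxp2 nuclei as a percentage of Slc17a7 nuclei (left), the percentage of them in the core clusters (middle) and their median UMIs (right). As a share of Slc17a7 nuclei the ANGPT2 libraries lie between 16.4% and 19.9% and the control libraries between 13.5% and 18.1%.

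RNA content per nucleus did not differ by the test either. The median UMIs of the members relative to the Cux2 and Rorb nuclei of the same library were -0.05, -0.13, -0.03 and -0.34 on the log2 scale in ANGPT2 libraries and -0.12, -0.14 and -0.24 in control libraries. All 7 values lay below 0. Each class had to reach 3 detected markers of its own list, which depends on depth, and the effect of this on the ratio was not tested. The group means were -0.14 ± 0.14 (SD, n = 4) and -0.16 ± 0.06 (SD, n = 3), and they differed by 0.02 (two-sided exact permutation test, p = 0.886). Relative to all other Slc17a7 nuclei the values were -0.04, 0.04, 0.05 and -0.27 in ANGPT2 libraries and -0.10, -0.03 and -0.03 in control libraries, on both sides of 0. Nuclei with at least 2 of 5 layer 6b markers made up 6.99% ± 1.07 (SD, n = 4) of the members in ANGPT2 and 6.53% ± 1.06 (SD, n = 3) in control libraries, a difference of 0.466 points (exact permutation p = 0.571). In oligodendrocyte nuclei the same count of markers was met by 0% to 0.635% of nuclei. Their median depths were 900.5 to 2991 UMIs against 4830 to 16268 UMIs in the members, so the 2 shares are not at like depth.

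The female control library of batch 1 is described first among the gene results, because many of them turn on it. Genes that neurons switch on within minutes to hours of strong activity were highest in this library. Nptx2, a secreted pentraxin of excitatory synapses, was at 8.33, 11.2, 4.59 and 3.74 CPM in ANGPT2 members and at 9.69, 167 and 13.4 CPM in control members. Npas4, a transcription factor induced by calcium entry, was at 4.46, 6.51, 2.30 and 7.48 CPM in ANGPT2 and at 4.66, 107 and 3.83 CPM in control members. Ptgs2, the inducible cyclooxygenase, was at 3.68, 2.93, 2.30 and 1.25 CPM in ANGPT2 and at 6.01, 88.0 and 1.91 CPM in control members. In each of these genes 1 control library stood far above the other 6, and the other 2 control libraries lay among or near the ANGPT2 values. Fos reached 50.3 CPM there against 3.74 to 9.11 CPM in the others, and the neurotrophin gene Bdnf 98.7 CPM against 11.6 to 22.4 CPM. Of 21 tested activity-regulated genes, 20 were highest in this library, while 13.4% of all 13128 tested genes were highest there. In the Cux2 nuclei the same library was highest for 17 of these 21 genes and for 13.7% of all genes. In the Rorb nuclei it was highest for 9 of the 21 and for 14.5% of all genes, while the control male of batch 2 was highest for 8 of the 21 and for 26.7% of all genes. Bdnf reached 269 CPM in its Cux2 nuclei, against 28.6 to 46.4 CPM in the other libraries. Genes outside this list also stood apart, among them Blnk, an adaptor of B cell receptor signalling, at 222 CPM against 12.6 to 44.9 CPM, and Mir670hg at 431 CPM against 50.5 to 112 CPM. The handling of this animal is not described in the labels.

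**Figure D4:**
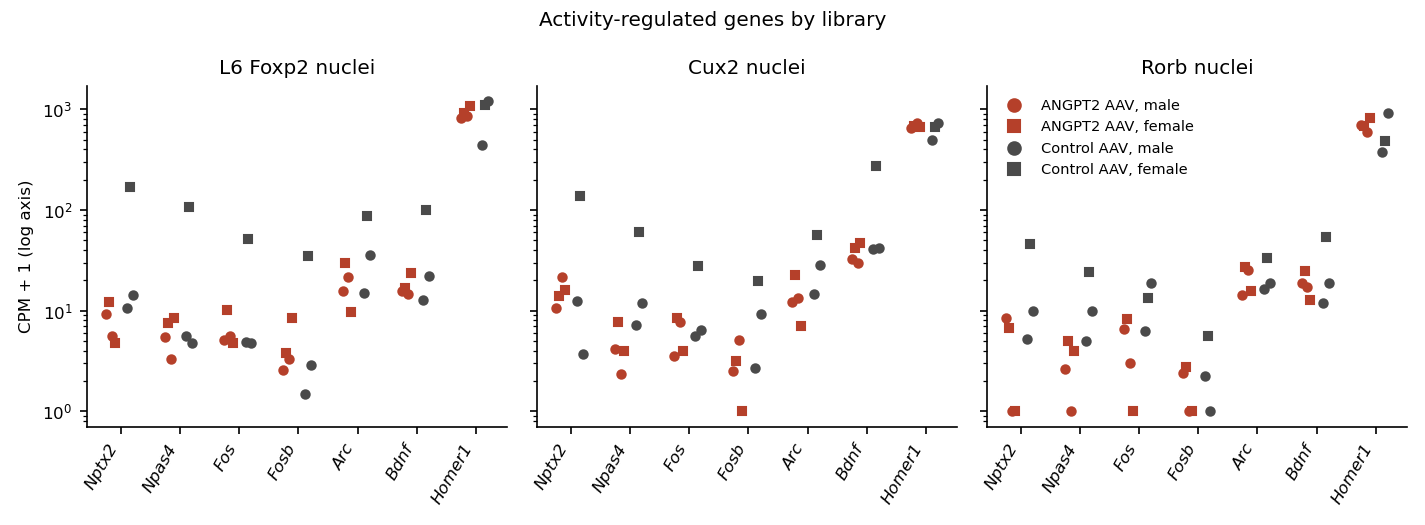
7 activity-regulated genes in Layer 6 Foxp2, Cux2 and Rorb nuclei (panels from left), in CPM plus 1 on a log axis, 1 point per library with ANGPT2 AAV left of Control AAV. In the Layer 6 Foxp2 nuclei the female control of batch 1 is the highest library for genes such as Nptx2 (167 CPM), Npas4 (107 CPM), Fos (50.3 CPM) and Bdnf (98.7 CPM).

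The comparison of ANGPT2 AAV with Control AAV over all genes called 0 genes higher and 0 lower of 13128 tested (0%), by edgeR's quasi-likelihood test at a Benjamini-Hochberg adjusted p of 0.05. An unadjusted p under 0.05 was reached by 931 genes (7.09%), of which 350 were higher and 581 lower in ANGPT2 members. DESeq2 called 1 gene higher, Abi3bp, and 2 lower, Syt9 and Stac. Without a filter on low counts edgeR called 70 higher and 303 lower. Of the fits with 1 library left out, those without a control male moved these counts most, with 1 higher and 33 lower without the male of batch 1 and 6 higher and 43 lower without the male of batch 2. With batch and sex in the fit there were 1 higher and 7 lower, and with batch alone 0 and 0. The fit with batch and sex gave adjusted p of 0.0425 for Stac, 0.0485 for Syt9 and 0.0227 for Tspan18 by edgeR's quasi-likelihood test, all lower and described below. No gene is therefore said to have changed below, and the genes are given by their values. Levels of the 2 groups did not overlap for 192 genes that were higher (1.46%) and 630 that were lower (4.8%) in ANGPT2 members. In summed nuclei, fewer cells of a type and less RNA per cell cannot be told apart.

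Of the 11 genes reported as higher with the smallest p, Abi3bp, an extracellular matrix protein that binds the adaptor ABI3, came first. It lies on chromosome 16 (56477878 to 56690135, plus strand, GRCm38). Its level was 57.7, 36.6, 76.9 and 54.8 CPM in ANGPT2 members and 15.3, 19.6 and 24.9 CPM in control members. The groups did not overlap, and males and females of batch 1 and males of batch 2 gave the same order. The log2 difference was 1.67 (SE 0.28, adjusted p = 0.193 by edgeR's quasi-likelihood test), with 1.36 in batch 1 and 1.35 in batch 2. Within the core clusters it was 79.0, 42.3, 108 and 80.8 CPM against 14.8, 15.2 and 32.9 CPM, a log2 difference of 2.22, and without the female control it was 1.83 over all members. With batch and sex in the fit the adjusted p was 0.0356 by the same test. Over 18 settings on this scale the difference ran from 1.41 to 2.22 and passed the threshold in 5. Abi3bp is also among the leading genes of a core cluster, cluster 5, which held 36.0% of its UMIs. Within cluster 5 it was at 148, 80.5, 173 and 85.4 CPM in ANGPT2 libraries and at 30.4, 0 and 57.6 CPM in control libraries. Within cluster 1 it was at 63.4, 26.2, 61.8 and 83.2 CPM in ANGPT2 libraries and at 12.4, 0 and 0 CPM in control libraries. In both clusters every ANGPT2 library lay above every control library, although the female control had only 4 and 5 nuclei there. Other clusters did not all share this order. In cluster 11, where Abi3bp was highest (171 CPM), it was at 219, 96.3, 0 and 253 CPM in ANGPT2 libraries. The batch 1 control libraries had 203 and 186 CPM there, and each batch 2 ANGPT2 library only 1 nucleus. In cluster 3, also in the core, the groups overlapped, at 14.6, 0, 0 and 0 CPM against 4.62, 0 and 0 CPM. In cluster 13 the batch 1 values were 7.88 and 0 CPM against 54.3 and 0 CPM. The clusters were cut from the same counts, and these values carry no test.

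Mypn, the sarcomere protein myopalladin, was at 19.4, 19.7, 17.2 and 16.2 CPM in ANGPT2 members and at 6.87, 5.78 and 15.3 CPM in control members (log2 difference 1.46, SE 0.27). The 2 groups did not overlap, but the batch 2 male control lay close to the ANGPT2 libraries. Fap, a membrane serine protease of activated fibroblasts, was at 24.99, 18.4, 25.3 and 24.9 CPM in ANGPT2 and at 11.6, 12.01 and 11.5 CPM in control members (1.04, SE 0.23). Utrn, the dystrophin relative utrophin, was at 52.7, 68.8, 66.6 and 57.3 CPM in ANGPT2 and at 35.2, 38.8 and 47.8 CPM in control members (0.74, SE 0.17). Both were higher in every ANGPT2 library than in any control library. Fap differed less in the core clusters, at 0.54, while Utrn differed more, at 1.26, although the core held only 12.9% of its UMIs. In the core the groups overlapped for both genes. Cluster 4, with 25.9% doublet calls, held 27.1% of the UMIs of Utrn, and its level was highest in cluster 9 (221 CPM).

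Kcnt2, a potassium channel gated by sodium, was at 520, 513, 725 and 680 CPM in ANGPT2 members and at 356, 259 and 505 CPM in control members (log2 difference 0.85, SE 0.23). It was the most abundant of the 11 genes, and its groups did not overlap. Npsr1, the receptor of neuropeptide S, was at 26.7, 24.7, 21.8 and 27.4 CPM in ANGPT2 and at 14.7, 12.5 and 1.91 CPM in control members (1.12, SE 0.27). Of its UMIs 39.7% lay in a cluster of 67 nuclei led by Tshz2, and with 4 markers required its difference was -0.41. Pla2g4e, a phospholipase A2, was at 35.6, 37.9, 32.1 and 61.1 CPM in ANGPT2 and at 26.2, 21.4 and 24.9 CPM in control members (0.84, SE 0.23), with 0.95 in the core. The genes Pcdhb6, Eps8l1, Col8a1 and Trat1 were below 25 CPM in every library, with log2 differences of 2.33, 2.42, 0.95 and 1.32. Pcdhb6 belongs to a cluster of near-identical protocadherin genes, so its count is uncertain. Of Col8a1, a collagen gene, 53.8% of the UMIs lay in the cluster led by Ccn2, and its difference in the core was 0.17.

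The 12 lower genes with the smallest p drew most of their UMIs from outside the core, which held 1.11% to 38.8% of them. For the 11 higher genes the core held 9.18% to 64.1%, so several of those also lay mostly outside it. Of all UMIs of the members the core held 47.5%. Syt9, a synaptotagmin of vesicle release, was at 33.1, 24.1, 13.8 and 27.4 CPM in ANGPT2 members and at 104, 78.9 and 30.6 CPM in control members. The batch 1 control libraries were far above the others, and the batch 2 control male was below 1 ANGPT2 library. Its log2 difference was -1.51 (SE 0.29, adjusted p = 0.197 by edgeR's quasi-likelihood test) over all members and -0.14 in the core. Cluster 7 held 69.3% of its UMIs. Within that cluster Syt9 was at 278, 97.5, 0 and 103 CPM in ANGPT2 libraries and at 467, 533 and 0 CPM in control libraries. It was thus also lower there with ANGPT2 in batch 1, while the batch 2 libraries had only 4, 2 and 3 nuclei. These values carry no test. Plekhg1, a guanine nucleotide exchange factor, was at 20.0, 23.6, 11.5 and 33.6 CPM in ANGPT2 and at 94.4, 77.1 and 21.0 CPM in control members. It had a difference of -1.63 (SE 0.33) over all members and of 0.21 in the core, and 69.9% of its UMIs lay in cluster 7. Col25a1, a membrane collagen whose shed part is found in amyloid plaques, was at 63.2, 54.0, 50.5 and 52.3 CPM in ANGPT2 and at 103, 109 and 80.4 CPM in control members. Its groups did not overlap, with a difference of -0.76 (SE 0.16), but the value in the core was 0.48 and cluster 7 held 54.7% of its UMIs. Tspan18, a tetraspanin, and Hhip, which binds hedgehog ligands, had 52.7% and 54.0% of their UMIs in cluster 7, with differences of -2.70 and -1.90. Syt9, Plekhg1 and Col25a1 were thus lower over all members and close to equal or higher in the core, and the other 2 genes were too low in the core to test.

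Other lower genes had many of their UMIs in other mixed clusters. Slc1a3, the glutamate transporter of astrocytes, was at 16.7, 16.9, 13.8 and 13.7 CPM in ANGPT2 members and at 50.1, 30.3 and 23.0 CPM in control members (-1.14, SE 0.22). In the core it was at 10.9, 13.8, 8.68 and 14.7 CPM against 10.8, 8.55 and 10.97 CPM, a difference of 0.35. The cluster with 89.2% doublet calls held 52.5% of the UMIs of Slc1a3 and 75.9% of those of Apbb1ip, a Rap1 effector of immune cells (-1.71, SE 0.33). Cluster 10 held 57.0% of the UMIs of Arhgef26, another exchange factor (-1.57, SE 0.28), 43.6% of those of Pkp2, a desmosome protein (-1.30, SE 0.26, and -0.70 in the core), and 35.8% of those of Stac, which binds voltage-gated calcium channels (-2.09, SE 0.39). It also held 30.9% of those of Arhgef6, a Rac exchange factor (-1.91, SE 0.39). Apbb1ip, Arhgef26, Stac and Arhgef6 were not tested in the core. Lats2, a kinase of the Hippo pathway, had 38.8% of its UMIs in the core. Lats2 was at 7.36, 6.84, 3.44 and 6.23 CPM in ANGPT2 members and at 14.6, 19.01 and 15.3 CPM in control members (-1.28, SE 0.26), with -1.20 in the core. Its groups did not overlap, and it had -1.13 in batch 1 and -1.52 in batch 2. Of the 11 higher genes 9 were tested in the core and all 9 kept their direction there, while of the 12 lower genes 6 were tested and 3 kept it. The genes were chosen by p over all members, which include the core, so a kept direction is not separate support.

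**Figure D5:**
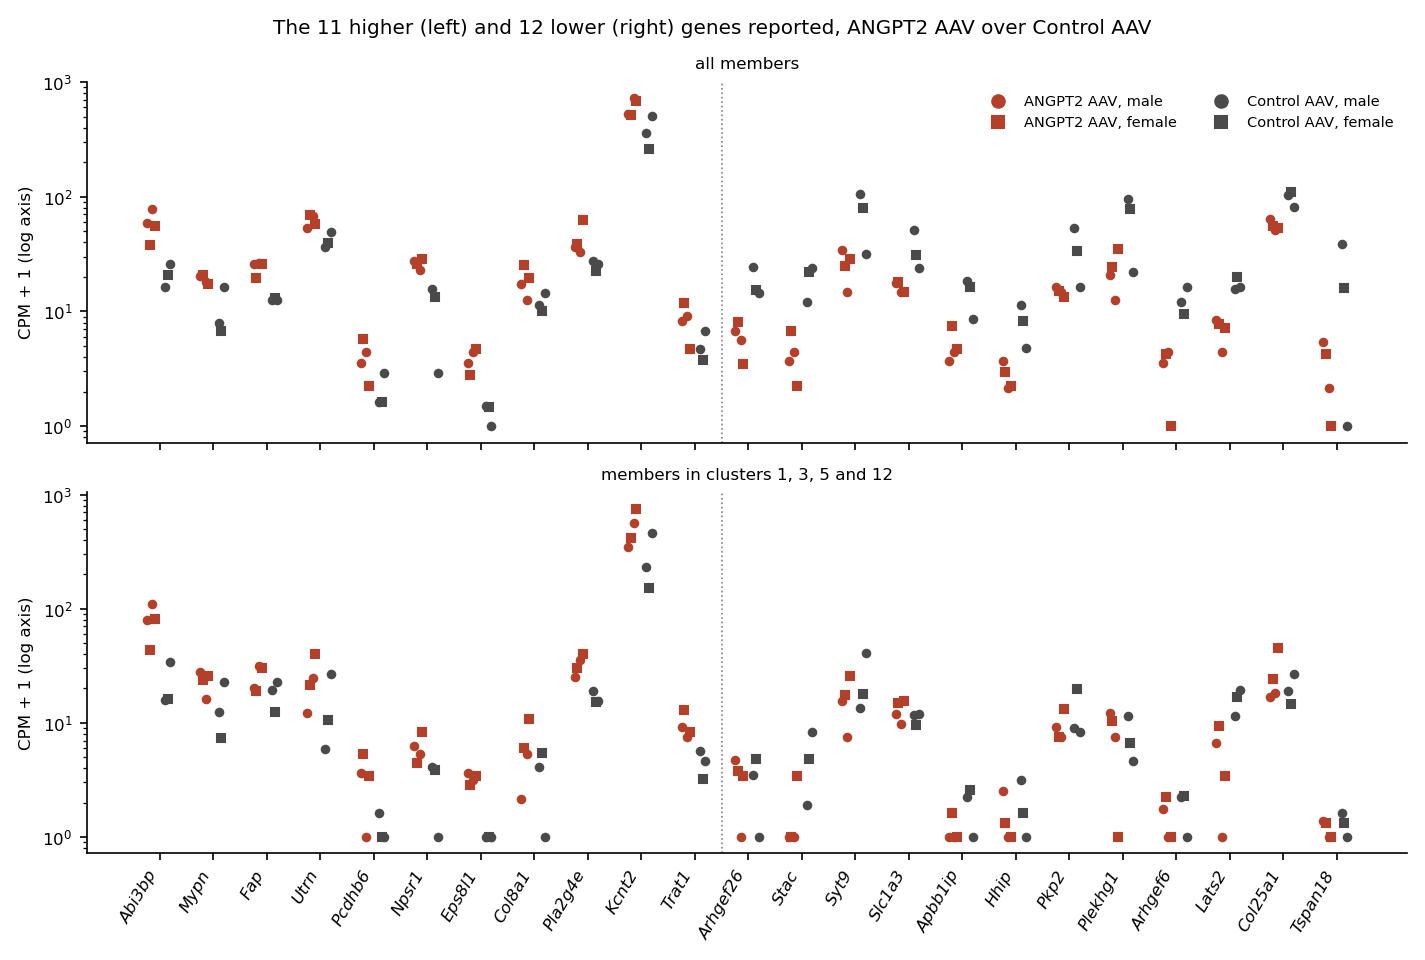
The 11 higher and 12 lower genes reported for their small p in the comparison of ANGPT2 AAV with Control AAV, in CPM plus 1 on a log axis over all members (top) and in the core (bottom), 1 point per library with ANGPT2 AAV left of Control AAV. Over all members Abi3bp lies between 36.6 and 76.9 CPM in ANGPT2 members and between 15.3 and 24.9 CPM in control members, and none of the 23 genes passed the adjusted threshold.

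Summed markers of several other cell types were lower in ANGPT2 members, like these genes, and those of others were not. The 7 thalamic markers summed to 64.7, 82.0, 18.4 and 102 CPM in ANGPT2 members and to 238, 192 and 23.0 CPM in control members, and in the core to 2.17 to 41.0 CPM and 10.97 to 30.2 CPM. Over all members 1 of these 7 had the higher mean in ANGPT2 libraries. The 7 hippocampal markers summed to 37.9 to 79.8 CPM in ANGPT2 and 104 to 122 CPM in control members, with 0 of 7 higher, and in the core to 15.2 to 33.8 CPM and 24.6 to 32.9 CPM. The 5 astrocyte markers summed to 26.4 to 39.9 CPM in ANGPT2 and 59.3 to 65.2 CPM in control members, with 0 of 5 higher, and in the core to 19.5 to 36.0 CPM and 27.7 to 47.5 CPM. Thus the sums of hippocampal and astrocyte markers did not overlap between the groups over all members, and did overlap in the core. The astrocyte sums include Slc1a3, chosen above for its small p, so they are not separate from that gene. The 7 microglial markers summed to 45.7 to 72.6 CPM and 65.1 to 105 CPM, the 6 oligodendrocyte markers to 177 to 410 CPM and 268 to 462 CPM, and the 8 inhibitory markers to 239 to 359 CPM and 302 to 676 CPM in ANGPT2 and control members. The 8 striatal markers summed to 1405 to 1554 CPM in ANGPT2 and 857 to 1473 CPM in control members, with 8 of 8 higher, and in the core to 1128 to 1566 CPM and 733 to 1645 CPM, with 5 of 8 higher. The 3 choroid plexus markers, all with the higher mean in ANGPT2 members, summed to 46.3, 301, 21.8 and 17.4 CPM in ANGPT2 and 58.0, 72.8 and 74.6 CPM in control members, so 1 ANGPT2 library was high and the other 3 were below the controls. The 8 upper-layer markers outside the rule summed to 648 to 677 CPM and 509 to 635 CPM in ANGPT2 and control members. Endothelial markers were near the floor, at 2.30 to 4.99 CPM in ANGPT2 and 1.91 to 4.29 CPM in control members. The part of these other types in the gene results was not tested beyond the values in the core and without called doublets.

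The next question was whether the ANGPT2 difference in the members was unlike that in the Cux2 and Rorb nuclei of the same libraries. Of 14215 genes, edgeR's quasi-likelihood test of the class by treatment term called 0 higher and 7 lower (0.0492%), and 840 had an unadjusted p under 0.05 (5.91%). The 6 of these 7 genes with the smallest p fell in the members relative to the other cortical nuclei and share an adjusted p of 0.0331 or 0.0392. The seventh, D130079A08Rik, lay outside the rule for naming genes. Tspan18 was at 4.46, 3.26, 1.15 and 0 CPM in ANGPT2 members and at 37.6, 15.1 and 0 CPM in control members. In the Cux2 and Rorb nuclei it was at 5.06, 2.89, 0.812 and 3.98 CPM with ANGPT2 and at 6.06, 1.86 and 0 CPM with the control vector. The difference between the classes was -2.81 on the log2 scale (SE 0.38, adjusted p = 0.0331 by edgeR's quasi-likelihood test), and only the batch 1 control members were high.

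Kcnip1, a calcium-binding subunit of A-type potassium channels, was at 49.8, 35.5, 34.4 and 19.9 CPM in ANGPT2 members and at 109, 84.7 and 28.7 CPM in control members. In the other cortical nuclei it was at 6.49 to 21.7 CPM with ANGPT2 and 8.44 to 21.1 CPM with the control vector, and the difference was -1.36 (SE 0.21). Syt9 gave -1.38 (SE 0.22). Both genes were high in the batch 1 control members and not in the batch 2 control. Vat1l, a gene that marks layer 5 neurons with axons to the brainstem, was at 16.1, 15.1, 6.89 and 7.48 CPM in ANGPT2 members and at 31.6, 21.6 and 19.1 CPM in control members, with a difference between classes of -1.32 (SE 0.20). Ubash3b, a phosphatase of the STS family, was at 33.7, 27.0, 28.7 and 15.0 CPM in ANGPT2 and at 51.9, 61.6 and 36.4 CPM in control members, with -1.04 (SE 0.16). Rreb1, a transcription factor that responds to Ras, was at 16.1, 14.8, 8.04 and 9.97 CPM in ANGPT2 and at 45.5, 24.3 and 19.1 CPM in control members, with -1.13 (SE 0.19). The groups did not overlap in the members for these last 3 genes.

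These 6 genes had much of their signal in a few clusters. Cluster 7 held 52.9% of the UMIs of Kcnip1 and 56.7% of those of Vat1l, and the cluster with 89.2% doublet calls held 35.2% of those of Rreb1. The core held 1.11% of the UMIs of Tspan18, 2.68% of those of Kcnip1 and 29.8% of those of Ubash3b. With called doublets removed 0 genes were called lower, but the difference was -2.83 for Tspan18, -1.94 for Vat1l, -0.96 for Ubash3b, -1.64 for Kcnip1, -1.78 for Syt9 and -1.19 for Rreb1, with adjusted p of 0.0637 to 0.310 by the same edgeR test. It was thus about as large as with the doublets or larger. With the core clusters alone 0 genes were called lower as well. There the difference was -0.07 for Kcnip1, 0.26 for Syt9, 0.17 for Rreb1, -1.28 for Vat1l and -0.97 for Ubash3b, and Tspan18 was not tested. Leaving out ANGPT2 male 1 or ANGPT2 female 1 also left 0 lower genes, and leaving out the female control left 4 higher and 40 lower. Without the male control of batch 1 there were 17 higher and 56 lower, and without that of batch 2 there were 11 and 64. With batch as a block for each class there were 1 higher and 18 lower, which included the 7.

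The 6 genes with the smallest p in the opposite direction did not pass the threshold without a block. Sdk2, a synaptic adhesion molecule, was at 469, 460, 375 and 379 CPM in ANGPT2 members and at 351, 493 and 388 CPM in control members, while in the other cortical nuclei it was at 27.6 to 70.5 CPM with ANGPT2 and 48.97 to 117 CPM with the control vector. Its difference was 0.89 (SE 0.21, adjusted p = 0.129 by edgeR's quasi-likelihood test), and the groups differed more in the other cortical nuclei than in the members. With batch as a block for each class its adjusted p was 0.0315 by the same test. Sez6, a complement-related protein of dendrites, gave 0.77 (SE 0.18), and Utrn 0.72 (SE 0.16). Efcab6 gave 0.69 (SE 0.14), Serinc2 1.08 (SE 0.23) and Blnk 0.71 (SE 0.17). A positive value need not mean a higher level in ANGPT2 members. Mean levels in ANGPT2 and control members were 87.4 and 94.5 CPM for Sez6 and 39.3 and 46.5 CPM for Serinc2. Those of Blnk were 26.996 and 94.2 CPM, with 222 CPM in the female control. In the other cortical nuclei the means were 19.1 and 32.6, 9.42 and 17.95, and 5.598 and 31.5 CPM in this order. Utrn and Efcab6 had the higher mean in ANGPT2 members, 61.4 and 28.6 CPM against 40.6 and 24.4 CPM.

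Gene groups are described by their counts and by the median log2 difference of their tested genes, beside which all 13128 genes had 6338 higher, 6790 lower and a median of -0.01. In none of the 22 lists did a gene pass the adjusted threshold. Genes of corticothalamic identity outside the rule counted 12 higher and 4 lower of 16, with a median of 0.19 over all members and -0.01 in the core. Thsd7b averaged 905 ± 182 CPM in ANGPT2 members and 639 ± 154 CPM in control members (log2 difference 0.63, SE 0.22), Tle4 420 ± 57.3 CPM and 322 ± 76.0 CPM (0.51, SE 0.20), and Bcl11b had 0.31 (SE 0.18). The transcription factors of cortical layers counted 17 higher and 5 lower of 22, with a median of 0.20 and 0.12 in the core. Bcl11a had 0.38 (SE 0.15). The levels of the 16 identity genes summed to 5227 to 6377 CPM in ANGPT2 members and 4763 to 5825 CPM in control members, so the sums overlapped.

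Genes of glutamate signalling, the transmitter of these neurons, lay near the median of all genes. Ionotropic subunits counted 9 higher and 8 lower of 17 (median 0.03). Gria4, an AMPA receptor subunit, averaged 695 ± 60.8 CPM in ANGPT2 members and 576 ± 85.9 CPM in control members (0.38, SE 0.15), while the NMDA subunits Grin2d (-1.32, SE 0.34) and Grin2c (-1.60, SE 0.51) were below 10 CPM on average in both groups. Metabotropic receptors counted 4 higher and 3 lower of 7 (median 0.06), with Grm3 at 652 ± 111 CPM and 403 ± 185 CPM (0.85, SE 0.27), Grm5 at 0.34 (SE 0.17) and Grm4 at -0.35 (SE 0.18). Receptors of GABA, through which interneurons inhibit these cells, counted 10 higher and 4 lower of 14 (median 0.16). Gabrb2 averaged 570 ± 116 CPM in ANGPT2 and 400 ± 50.5 CPM in control members (0.64, SE 0.20), Gabrg3 had 0.33 (SE 0.17) and Gabra3 0.49 (SE 0.26).

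The release machinery counted 15 higher and 7 lower of 22 (median 0.08). The calcium sensor Syt1 averaged 5360 ± 611 CPM in ANGPT2 and 4270 ± 910 CPM in control members (0.45, SE 0.20), Rims2 had 0.37 (SE 0.17), and Syn3 had -0.59 (SE 0.29) but 0.04 without the female control. Potassium and HCN channels counted 10 higher and 11 lower of 21 (median -0.01). Kcnh7 averaged 2275 ± 395 CPM in ANGPT2 and 1565 ± 324 CPM in control members (0.66, SE 0.21), and Kcnq3, a subunit of the M current, had 0.47 (SE 0.16). Sodium and calcium channels counted 12 higher and 7 lower of 19 (median 0.10), with Cacna2d1 at 0.43 (SE 0.18), Cacna2d2 at -0.68 (SE 0.25) and Cacna1c, an L-type channel, at -0.51 (SE 0.23) but -0.10 without the female control. Receptors of acetylcholine, monoamines and peptides counted 12 higher and 8 lower of 20 (median 0.09). Chrna7 (0.59, SE 0.23) and Htr1f (0.56, SE 0.23) were the higher and Htr4 (-0.80, SE 0.29) the lower of the 3 with the smallest p. Calcium and cAMP signalling counted 18 higher and 6 lower of 24 (median 0.14), with Camk4 at 0.40 (SE 0.15), the calcium pump Atp2b4 at 0.46 (SE 0.20) and Prkcb at 0.34 (SE 0.16).

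Axon guidance genes, which steer growing axons, counted 16 higher and 12 lower of 28 (median 0.06). Robo2, a receptor of Slit ligands, averaged 762 ± 57.1 CPM in ANGPT2 and 593 ± 37.0 CPM in control members (0.47, SE 0.15). Epha6 averaged 448 ± 37.4 CPM and 779 ± 308 CPM (-0.70, SE 0.23), and Sema3c 2.77 ± 0.566 CPM and 9.95 ± 6.29 CPM (-1.28, SE 0.41). Epha6 is a leading gene of cluster 10, and without doublets Sema3c had 0.01. Synaptic adhesion counted 21 higher and 7 lower of 28 (median 0.22), although the 3 genes with the smallest p were Tenm3 (-0.55, SE 0.22), Cdh8 (-0.46, SE 0.19) and Cdh10 (0.60, SE 0.27). In the core Cdh8 had 0.29, and without the female control Tenm3 had -0.15.

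The activity-regulated genes counted 1 higher and 20 lower of 21, with a median of -1.20, the largest in size of the 22 lists. Without the female control of batch 1 the median was 0.31 over 19 tested genes, so its sign rested on 1 library. Nptx2 averaged 6.97 ± 3.47 CPM in ANGPT2 and 63.4 ± 89.9 CPM in control members (-3.08, SE 0.80), Npas4 had -3.09 (SE 0.89) and Junb -1.40 (SE 0.51). Without that library Nptx2 had -0.14, Npas4 0.36 and Junb 0.19.

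Mitochondrially encoded transcripts counted 13 higher and 0 lower of 13, with a median of 0.43, and 0.87 without the female control. They summed to 816, 1569, 864 and 747 CPM in ANGPT2 members and to 454, 928 and 1257 CPM in control members, so the sums overlapped and the batch 2 control lay above 3 ANGPT2 libraries. mt-Atp8 had 0.71 (SE 0.28), mt-Nd3 1.84 (SE 0.73) and mt-Nd1 0.67 (SE 0.31). In nuclear libraries these transcripts come from outside the nucleus, and barcodes with 5% or more were removed. The nuclear-encoded respiratory chain counted 4 higher and 16 lower of 20 (median -0.09), with Cox6c at 0.43 (SE 0.17), Uqcrc2 at -0.20 (SE 0.15) and Cox5a at -0.33 (SE 0.28), and so did not follow. Cytosolic ribosomal proteins counted 36 higher and 43 lower of 79 (median -0.05), with Rpl22l1 at -0.63 (SE 0.23), Rps13 at -0.42 (SE 0.20) and Rps15 at -0.49 (SE 0.33) but -0.10 without the female control.

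Stress, immune and amyloid genes were examined because all mice carried the 5xFAD transgenes. The unfolded protein response and heat shock list counted 4 higher and 14 lower of 18 (median -0.11), with the chaperone Hsph1 at 46.5 ± 6.63 CPM in ANGPT2 and 68.9 ± 9.23 CPM in control members (-0.44, SE 0.17), Xbp1 at -0.48 (SE 0.28) and Hsp90b1 at -0.19 (SE 0.14). MHC class I presentation counted 2 higher and 6 lower of 8 (median -0.22). H2-D1 averaged 5.57 ± 3.86 CPM in ANGPT2 and 14.7 ± 2.88 CPM in control members (-1.06, SE 0.32), H2-K1 1.88 ± 0.974 CPM and 6.29 ± 2.06 CPM (-1.52, SE 0.48), and B2m had -0.60 (SE 0.42) but -0.22 without the female control. The H2 genes are close paralogs and low here. For H2-D1 and H2-K1 the difference was -0.75 and -1.14 in the core, and -0.94 and -1.15 with called doublets removed. Microglial marker sums tended the same way with overlapping groups, and a link to the H2 genes was not tested. Of 20 interferon response genes 5 could be tested, 1 higher and 4 lower (median -0.38), with Rnf213 at -1.18 (SE 0.42), Ifi27 at -0.41 (SE 0.28) and Irf9 at -0.38 (SE 0.45). Genes of amyloid precursor processing counted 10 higher and 8 lower of 18 (median 0.03), with Ide, an enzyme that degrades amyloid peptide, at 0.30 (SE 0.17), Bace2 at -0.84 (SE 0.51) and Aph1b at 0.37 (SE 0.22). Cholesterol synthesis counted 11 higher and 10 lower of 21 (median 0.02), with Lss at 0.69 (SE 0.30) and Ebp at -0.82 (SE 0.38).

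Genes of the angiopoietin pathway were at low levels in these neurons. Angpt2 was at 2.52, 2.12, 3.44 and 2.49 CPM in ANGPT2 members (13, 13, 3 and 2 UMIs) and at 2.94, 3.04 and 3.83 CPM in control members (24, 20 and 2 UMIs). The groups overlapped, and the log2 difference was -0.25 (SE 0.41, adjusted p = 0.977 by edgeR's quasi-likelihood test). The vector's own transcript was not analysed here, so these counts do not bear on delivery. Angpt1, the ligand that activates TIE2, was at 16.3, 9.60, 24.1 and 31.2 CPM in ANGPT2 and at 14.8, 10.9 and 17.2 CPM in control members (0.48, SE 0.37). Tek and Tie1, which encode the receptors and mark endothelium, were too low to test, with Tek at 0.969 to 2.49 CPM in ANGPT2 and 1.72 to 1.91 CPM in control members. Of the 12 angiopoietin, Tie and VEGF genes 7 were tested, 3 higher and 4 lower (median -0.03). Nrp2, a semaphorin and VEGF receptor, averaged 35.6 ± 15.2 CPM in ANGPT2 and 65.7 ± 13.2 CPM in control members (-0.81, SE 0.29), Nrp1, which also leads the genes of the members, had -0.27 (SE 0.17), and Vegfc had 0.59 (SE 0.39). Without the female control Nrp1 had -0.09 and Vegfc 0.22. None of these genes passed the adjusted threshold.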

How the data were processed

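Nuclei from brain of 5xFAD mice were profiled by 10x Genomics single-nucleus RNA sequencing. The values are raw UMI counts of 32285 genes in each barcode, deposited without normalization and made by the authors with Cell Ranger 6.1.2 on mm10 (GRCm38), per the submitters' processing notes. The steps that gave the deposited lists of barcodes are not given in the sources used here. Of 58286 barcodes, 116 were removed for their mitochondrial share and 1 for its low number of genes.

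The members, the gene lists and most settings were chosen with earlier results of these data known. UMI counts of the members were summed per library and compared with edgeR 4.0.16 (R 4.3.3; quasi-likelihood test, TMM factors, filterByExpr with minimum count 10 and minimum total 15, treatment as the only term), with Benjamini-Hochberg adjustment over all genes tested and a threshold of 0.05. The difference from the Cux2 and Rorb nuclei was a class by treatment term with a term per library. Shares were compared by exact permutation over libraries. Log2 values of levels between classes used a pseudocount of 1 CPM. DESeq2 1.42.0 and limma 3.58.1 were alternatives. The procedures were tested on simulated data. Doublets were called per library (numpy 2.4.6, scikit-learn 1.9.0) from 2 simulated doublets per nucleus, 50 neighbours, 2000 variable genes and 30 components, at 0.8% per 1000 nuclei. They were kept in the main results, since the rule has no doublet term, and removed in an alternative. Clusters came from the Leiden algorithm in scanpy 1.11.5 (15 neighbours, resolution 0.5). Positions are from GENCODE M21 on GRCm38, which placed 32158 of the genes.

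The genes named are those of the rule, the 15 and 10 with the largest ratios to the Cux2 and Rorb nuclei, the 12 higher and 12 lower with the smallest p in the comparison of vectors, 6 and 6 in the class test, 3 for each of the 22 lists, and the angiopoietin genes. Of these, 1 of the 12 higher genes and 2 genes of the lists are not reported here. Sex-linked genes and symbols that start with Gm or end in Rik were left out of the genes with the smallest p. Genes named beyond these, among them Ptgs2, Fos, Bdnf, Blnk and Mir670hg in the female control library and the leading genes of clusters, were chosen after their values were seen. The marker Ctgf was read as Ccn2.

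The labels make the replicate number a shared batch. Deviations from the group means of libraries with the same number and sex correlated at 0.207, 0.132 and 0.104 across genes. Pairs with the same number but unlike sex gave -0.015, 0.123 and 0.083. Pairs with different numbers ran from -0.172 to 0.008. The fits with batch as a block were alternatives. P-values measure the spread between libraries, and the labels do not say whether 1 animal gave each library. Precision is limited by the 4 and 3 libraries and by the 94 to 115 members of each batch 2 library.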

Additional observations from a re-analysis of the deposited data

Results flagged for a closer look

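Dixon's test was applied to 97 sets of 4 ANGPT2 values, in which chance alone gives about 1 in 20. In 7 genes 1 ANGPT2 library stood apart from the other 3, as the gap to the nearest value over the whole range. The ratio was 0.952 for Fap, whose lowest library was at 18.4 CPM with the highest at 25.3 CPM, 0.840 for Bcl11b (155 to 192 CPM) and 0.844 for Cdh8 (155 to 194 CPM). It was 0.906 for Bace2 (1.15 to 6.23 CPM), 0.858 for Prkcb (1153 to 1270 CPM), 0.867 for mt-Nd3 (1.15 to 9.97 CPM) and 0.961 for mt-Nd1 (52.9 to 109 CPM).

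By edgeR's quasi-likelihood test of the difference itself, 6 genes differed in their ANGPT2 change between the members and the Cux2 or Rorb nuclei. On the log2 scale the difference was -2.81 for Tspan18, -1.32 for Vat1l, -1.04 for Ubash3b, -1.36 for Kcnip1, -1.38 for Syt9 and -1.13 for Rreb1. Their adjusted p was 0.0331 for the first 4 and 0.0392 for Syt9 and Rreb1, and none passed in the core clusters or with called doublets removed. Without called doublets the difference was -2.83, -1.94, -0.96, -1.64, -1.78 and -1.19 in the same order. In the core it was -1.28 for Vat1l and -0.97 for Ubash3b, and the levels of the groups in the core members overlapped for both. Cluster 7 had 3 thalamic markers and 1 inhibitory marker among its leading genes. In the batch 1 control libraries it held 50 and 34 members, against 12 and 10 in the batch 1 ANGPT2 libraries.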

How the results depend on the processing

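Over all genes tested, limits come from 7 libraries, from the shallow batch 2, and from the clusters outside the core. The 2 alternatives on core clusters were chosen after seeing the data.

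For the comparison of vectors (0 higher, 0 lower), DESeq2 gave 1 and 2, no filter on low counts 70 and 303, batch and sex as a replicate block 1 and 7, and limma with nuclei weighted equally 1 higher and 0 lower. The replicate block without sex gave 0 and 0. Among named genes, Abi3bp, Stac, Syt9 and Tspan18 passed with the block and sex and Sdk2 with the block by class, and no other call changed under a block. Leaving out 1 replicate at a time gave 0 to 6 higher and 0 to 43 lower. For the difference between classes (0 higher, 7 lower), RLE factors gave 12 lower, no filter 51 higher and 225 lower, a minimum count of 50 gave 0 lower, removing called doublets 0 lower, and 4 of 6 markers 2 higher and 7 lower. Comparing with all other Slc17a7 nuclei gave 7 higher and 37 lower, the replicate block by class 1 and 18, the core 0 lower, and the core without the female control 8 higher and 5 lower. DESeq2 gave 5 lower. Leaving out 1 replicate gave 0 to 17 higher and 0 to 64 lower.

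The difference in share was -0.835 points over all nuclei that passed, -0.0567 over cortical nuclei and 2.86 with 4 of 6 markers, and it ran from 1.13 to 3.42 with 1 replicate left out. The UMI ratio differed by -0.000632 against all other Slc17a7 nuclei. Leaving out 1 replicate gave -0.0123 to 0.0913 for the ratio, and -0.0402 to 1.07 points for the layer 6b share. That share differed by -2.08 points after thinning and by -3.51 with at least 1 layer 6b marker. The value after thinning rests on 1 nucleus among the 16 members left in the batch 2 male control, with 0 in every other library.

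Of the values of single genes over all settings, 1648 kept their direction and side of the threshold, 78 passed it newly, 47 no longer passed and 33 turned round. In the core the log2 difference was 0.35 for Slc1a3, 0.21 for Plekhg1, 0.48 for Col25a1, 0.21 for Kcnip1, 0.29 for Cdh8 and -0.21 for Vegfc, and the difference between classes was 0.26 for Syt9 and 0.17 for Rreb1. In the core without the female control the difference was 0.27 for Slc1a3, 0.056 for Pkp2, 0.30 for Col25a1, 0.10 for Cacna1c, 0.0027 for Epha6, 0.070 for Cdh8, 0.016 for Junb and 0.062 for Nrp1, and between classes 0.16 for Kcnip1, 0.96 for Syt9 and 0.26 for Rreb1. With 1 replicate left out it ran from -0.85 to 0.040 for Syn3, from -3.77 to 0.36 for Npas4 and from -1.99 to 0.19 for Junb, each lowest without Control male 1 and highest without Control female 1. After thinning it was -0.19 for Thsd7b, -0.23 for Grm5, -0.089 for Gabrg3 and -0.049 for Bcl11a. In members with under 2 UMIs of other types' markers it was -0.031 for Gabrg3, -0.056 for Gabra3, 0.51 for Nrp2 and -0.13 for Camk4. With 4 of 6 markers it was -0.41 for Npsr1 and 0.031 for Irf9, and with called doublets removed 0.013 for Sema3c. The cause of these turns was not tested.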
